A study of Mus musculus with 23 samples.

Results

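Spleens of the inbred mouse strains DBA/2J and C57BL/6J were compared 24 h after 1 Gy of gamma rays, with 4 RNA pools of DBA/2J set against 4 of C57BL/6J. These 8 pools were chosen by treatment and strain alone and are 8 of the 23 one-colour Illumina expression arrays of the study. Irradiated DBA/2J and irradiated C57BL/6J mice had received 1 Gy of 60Co gamma rays, at a dose rate of 6 Gy per minute, and form the high dose groups of the labels. DBA/2J and C57BL/6J controls, 4 pools each, were not irradiated. A further 3 DBA/2J and 4 C57BL/6J pools came from mice given a low dose of 10 cGy by a 137Cs source, at a rate of 9 cGy per hour, so dose, rate and source cannot be told apart. All mice were males aged 10 weeks, and every array held equal parts of spleen RNA from 2 mice of one strain. The word control stands in the source name of irradiated samples as well, and the treatment named beside it decided their group.

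The spleen filters blood, houses B, T and NK lymphocytes, and in mice keeps a red pulp that makes red cells, platelets and granulocytes throughout life. Dividing precursors of these blood lineages are among the cells most sensitive to ionising radiation, and the transcription factor p53 turns on cell cycle arrest and death genes after DNA damage. DBA/2J and C57BL/6J also differ by inherited variants with known effects in immune cells, among them their MHC haplotypes and lesions in the NK receptor gene Klrd1 and the melanosome and macrophage gene Gpnmb.

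Values are log2 intensities after background correction and quantile normalization, differences are DBA/2J minus C57BL/6J on that log2 scale with their standard error, and a gene was called at a limma Benjamini-Hochberg adjusted p under 0.05. Among the 8 irradiated pools, 15077 to 15914 of 34492 probes were detected per array, and the median signal ranged from 103.2 to 129. Pearson correlations between arrays were 0.987 to 0.996 within irradiated DBA/2J, 0.982 to 0.993 within irradiated C57BL/6J, and 0.953 to 0.967 between them. B cell genes were strong in all 8 pools, with list means of 10.89 to 11.03 in the irradiated DBA/2J pools and 11.07 to 11.22 in the irradiated C57BL/6J pools. Replicate 1 of irradiated C57BL/6J held pancreatic transcripts, with replicate 2 next. The mean of replicate 1 over 20 pancreas and fat genes was 12.50, against 7.43 in replicate 2, 6.68 in replicates 3 and 4, and 6.76 to 7.14 in irradiated DBA/2J pools. One C57BL/6J control pool held them as well, at 12.46. Fat transcripts were raised in replicate 4 of irradiated DBA/2J, where Car3, a carbonic anhydrase abundant in fat, reached 10.79. The strain difference of Car3 did not rest on that pool alone. It was called higher in DBA/2J in all 31 alternative settings that measured it, by 1.26 to 3.58. Its adjusted p was at most 0.00635 when any 1 irradiated pool was left out.

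Of 17176 features tested, 2265 differed between the irradiated strains, which is 13.2% of all, with 1064 higher (6.19%) and 1201 lower (6.99%) in DBA/2J. The middle called feature differed by 0.68 in size on the log2 scale. More than 2-fold differences numbered 297 higher and 369 lower. Over 8-fold there were 29 higher and 46 lower. The 4 pools of one strain lay wholly above or below the 4 of the other for 3601 features (21% of all), including 2153 of the called ones. The median difference of all features was 0.01. A probe reads a fixed sequence, so a DBA/2J variant under it can change the signal without a change in the transcript.

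Red cell precursor genes had the highest median difference of the cell lineage lists. Of 37 measured red cell genes, 30 were higher in DBA/2J, 0 were lower and 7 were not called (6.19% and 6.99% of all features), and the list median was 1.74. The mean over the list was 10.61, 10.90, 11.45 and 11.41 in the irradiated DBA/2J pools, against 8.93, 8.88, 9.15 and 9.11 in the irradiated C57BL/6J pools. All DBA/2J pools exceeded all C57BL/6J pools, and DBA/2J replicates 3 and 4 were above replicates 1 and 2. C57BL/6J replicate 1, with its pancreatic transcripts, had a red cell mean inside the range of the other C57BL/6J pools. Leaving out C57BL/6J replicates 1 and 2 together gave 23 higher red cell genes. In bulk tissue, fewer cells of a type and less RNA per cell cannot be told apart.

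Klf1, the transcription factor that switches on adult globin and red cell membrane genes, measured 11.58, 11.86, 12.65 and 12.54 in the irradiated DBA/2J pools, against 7.80, 7.13, 8.31 and 8.29 in the irradiated C57BL/6J pools. The strains were separated by a wide gap, and the difference was 4.27 ± 0.47 (adjusted p = 6.20e-07). Slc4a1 encodes band 3, which exchanges anions across the membrane of red cells. It measured 13.94, 14.34, 14.74 and 14.72 in the irradiated DBA/2J pools, against 10.14, 9.97, 11.28 and 10.92 in the irradiated C57BL/6J pools, without overlap, a difference of 3.85 ± 0.36 (adjusted p = 3.47e-08). Car1, a carbonic anhydrase of red cells, had 13.09, 13.43, 14.10 and 14.06 in the irradiated DBA/2J pools. In the irradiated C57BL/6J pools Car1 had 9.58, 7.94, 10.00 and 10.32. The spread was wider in C57BL/6J, where replicate 2 was lowest, and the difference was 4.21 ± 0.45 (adjusted p = 3.70e-07).

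The red cell skeleton and surface genes followed the same order. Sptb, the beta chain of the spectrin skeleton, had 9.92, 10.76, 11.16 and 11.09 in the irradiated DBA/2J pools, against 7.11, 7.02, 7.74 and 7.56 in the irradiated C57BL/6J pools, a difference of 3.38 ± 0.42 (adjusted p = 3.09e-06). Kel, the Kell blood group protein, had 9.41, 9.89, 10.84 and 10.83 in the irradiated DBA/2J pools, against 6.80, 6.50, 7.20 and 7.21 in the irradiated C57BL/6J pools, a difference of 3.32 ± 0.51 (adjusted p = 5.07e-05). In both genes DBA/2J replicate 1 was the lowest of its strain and still lay above every C57BL/6J pool. Ermap, an erythroblast membrane protein, differed by 3.23 ± 0.47 (adjusted p = 2.79e-05), and Hemgn, a nuclear protein of blood precursors, by 3.38 ± 0.52 (adjusted p = 5.97e-05). Of the 4 C57BL/6J arrays, 3 detected Kel, 3 Ermap, 2 Hemgn and 2 Sptb, and 2 of the 4 DBA/2J arrays detected Sptb. Slc38a5, an amino acid transporter of cells in the red cell lineage and elsewhere, differed by 3.68 ± 0.49 (adjusted p = 9.77e-06). Ctse, the protease cathepsin E, averaged 11.52 ± 0.52 in irradiated DBA/2J and 7.51 ± 0.36 in irradiated C57BL/6J (SD, n = 4 each; adjusted p = 2.94e-07).

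Globin genes had measured differences of unlike size, which do not show whether their transcripts changed alike. Hbb-b2, an adult beta globin gene, had 14.53, 14.11, 14.44 and 14.47 in the irradiated DBA/2J pools, against 7.85, 8.26, 8.11 and 8.21 in the irradiated C57BL/6J pools. All 8 pools kept to their strain, with a difference of 6.28 ± 0.23 (adjusted p = 4.50e-15). The strains carry different beta globin haplotypes with near-identical gene copies, so which copy this probe reads in each strain is uncertain. Hbq1b, a theta globin gene, averaged 9.77 ± 0.74 in irradiated DBA/2J and 6.47 ± 0.11 in irradiated C57BL/6J (SD, n = 4 each), was detected on 4 of 4 DBA/2J arrays and 0 of 4 C57BL/6J arrays, and was at least 9.54-fold higher (adjusted p = 5.57e-06). The alpha globin gene Hba-a1, at 15.88 ± 0.05 in irradiated DBA/2J and 15.74 ± 0.18 in irradiated C57BL/6J (SD, n = 4 each), sat near the top of the scale, and its difference of 0.15 ± 0.07 was not called. The other 6 red cell genes that were not called had differences from -0.03 (Ppox) to 0.95 (Rhd).

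Promoters of these red cell genes were searched because the genes moved together and the red cell factor GATA1 binds GATA motifs. The 4 written out below all hold a match, while those of Sptb and Hbq1b, without a match, are not written out. Of the 37 measured genes, 27 have a RefSeq promoter entry (GRCm38.p6, 250 bases before to 50 after the start), and 12 of these, 44.4%, hold AGATAA or TGATAA on either strand. The share among all 32851 promoter entries is 18.6%. A match is a description of the letters and no evidence of binding. Klf1 and Ermap hold 1 match each, Kel and Hemgn hold 2 each, and the entries of Sptb and Hbq1b hold 0. The windows are chr8:84901732-84902031 on the plus strand for Klf1, chr4:46404134-46404433 on the minus strand for Hemgn, chr6:41704276-41704575 on the minus strand for Kel, and chr4:119189946-119190245 on the minus strand for Ermap. Each is written 5′ to 3′ along its gene, with the motif matches of either strand in capitals.
Klf1: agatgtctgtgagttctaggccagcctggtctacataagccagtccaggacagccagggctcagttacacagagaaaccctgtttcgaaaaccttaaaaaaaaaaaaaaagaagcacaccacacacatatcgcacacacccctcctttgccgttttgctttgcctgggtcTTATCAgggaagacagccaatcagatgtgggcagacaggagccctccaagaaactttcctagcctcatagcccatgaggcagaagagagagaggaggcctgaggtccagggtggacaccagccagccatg
Hemgn: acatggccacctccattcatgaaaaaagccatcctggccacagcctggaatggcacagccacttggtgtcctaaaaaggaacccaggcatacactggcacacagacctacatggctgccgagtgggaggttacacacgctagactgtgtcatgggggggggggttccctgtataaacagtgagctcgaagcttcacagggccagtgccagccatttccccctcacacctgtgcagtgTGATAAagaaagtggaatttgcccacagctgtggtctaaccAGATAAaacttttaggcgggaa
Kel: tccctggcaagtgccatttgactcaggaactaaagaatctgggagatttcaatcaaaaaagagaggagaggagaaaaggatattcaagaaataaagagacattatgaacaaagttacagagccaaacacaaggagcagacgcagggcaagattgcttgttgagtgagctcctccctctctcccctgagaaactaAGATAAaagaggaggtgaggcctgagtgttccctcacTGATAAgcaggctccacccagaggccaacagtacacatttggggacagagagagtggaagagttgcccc
Ermap: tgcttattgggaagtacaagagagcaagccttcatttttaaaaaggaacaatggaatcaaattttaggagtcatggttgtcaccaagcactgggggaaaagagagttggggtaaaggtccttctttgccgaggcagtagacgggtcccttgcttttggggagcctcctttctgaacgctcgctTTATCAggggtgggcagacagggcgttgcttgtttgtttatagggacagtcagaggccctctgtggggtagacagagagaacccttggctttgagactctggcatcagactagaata

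Megakaryocyte and platelet genes showed the same direction at a smaller size. Of 17 measured genes, 13 were higher in irradiated DBA/2J, 0 were lower and 4 were not called, against 6.19% higher and 6.99% lower of all features, with a list median of 1.25. Selp encodes P-selectin, an adhesion receptor stored in platelets and vessel walls. It had 10.51, 10.27, 10.47 and 10.44 in the irradiated DBA/2J pools, against 7.51, 7.40, 7.49 and 7.35 in the irradiated C57BL/6J pools, and the difference was 2.98 ± 0.31 (adjusted p = 2.37e-07). Both strains were tight and far apart. Treml1, a receptor of platelet granules, had 12.70, 12.53, 12.99 and 12.91 in the irradiated DBA/2J pools, against 10.38, 10.98, 11.00 and 10.57 in the irradiated C57BL/6J pools, a difference of 2.05 ± 0.28 (adjusted p = 1.27e-05). Gp5, the glycoprotein V of the von Willebrand factor receptor, differed by 1.62 ± 0.25 (adjusted p = 4.74e-05), and Ppbp, a platelet chemokine precursor, by 1.81 ± 0.31 (adjusted p = 2.38e-04). The groups of none of these 4 genes overlapped.

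Primary granule genes of granulocyte precursors were split toward higher values in irradiated DBA/2J. Of 8 measured primary granule genes, 4 were higher and 1 was lower (against 6.19% higher and 6.99% lower of all features), and the list median was 1.37. Mpo, the myeloperoxidase of the primary granules, had 10.73, 10.12, 11.45 and 11.61 in the irradiated DBA/2J pools, against 8.82, 8.24, 9.09 and 8.11 in the irradiated C57BL/6J pools. The groups did not overlap, although the spread between pools exceeded 1 log2 unit in DBA/2J, and the difference was 2.41 ± 0.48 (adjusted p = 0.00104). The granule proteases differed likewise, with Ctsg (cathepsin G) at 1.98 ± 0.47 (adjusted p = 0.00553), Elane (neutrophil elastase) at 1.97 ± 0.48 (adjusted p = 0.00702) and Prtn3 (proteinase 3) at 1.87 ± 0.48 (adjusted p = 0.00948). Hdc, the histamine-forming enzyme of basophils and mast cells as well, was detected on 0 of 4 DBA/2J and 4 of 4 C57BL/6J arrays and was at least 2.4-fold lower (adjusted p = 0.0165). Without C57BL/6J replicates 1 and 2 together, 3 genes of the list were higher and 0 lower. With the background inferred from the detection p-values, the number of higher genes in this list was 1, and it was also 1 in the authors' processed values.

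Late granule genes of neutrophils were less clear. Of 19 measured genes 3 were higher and 0 lower, against 6.19% higher and 6.99% lower of all features, with a list median of 0.43. Ltf, the iron-binding lactoferrin, had 11.43, 11.47, 12.41 and 12.07 in the irradiated DBA/2J pools, against 10.07, 9.58, 10.90 and 9.54 in the irradiated C57BL/6J pools, a difference of 1.82 ± 0.52 (adjusted p = 0.0209). Camp, the antimicrobial cathelicidin, differed by 1.48 ± 0.46 (adjusted p = 0.0371), and Ngp, a neutrophil granule protein, by 1.88 ± 0.55 (adjusted p = 0.0241). None of the 3 pairs of groups overlapped. These calls were easily lost, since 0 genes of the list were called higher without C57BL/6J replicate 2, without C57BL/6J replicate 4, without DBA/2J replicate 3, without DBA/2J replicate 4 or without C57BL/6J replicates 1 and 2 together. Over all alternatives 0 to 7 genes of the list were called higher. The differences stayed above 0 throughout, at 1.62 to 2.20 for Ltf, 1.29 to 1.84 for Camp and 1.40 to 2.09 for Ngp. Lcn2, an iron-scavenging protein of the same granules, had 10.50, 10.35, 11.29 and 10.97 in the irradiated DBA/2J pools and 9.89, 9.95, 9.92 and 9.06 in the irradiated C57BL/6J pools, and was not called (1.07 ± 0.54, adjusted p = 0.254).

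**Figure D1:**
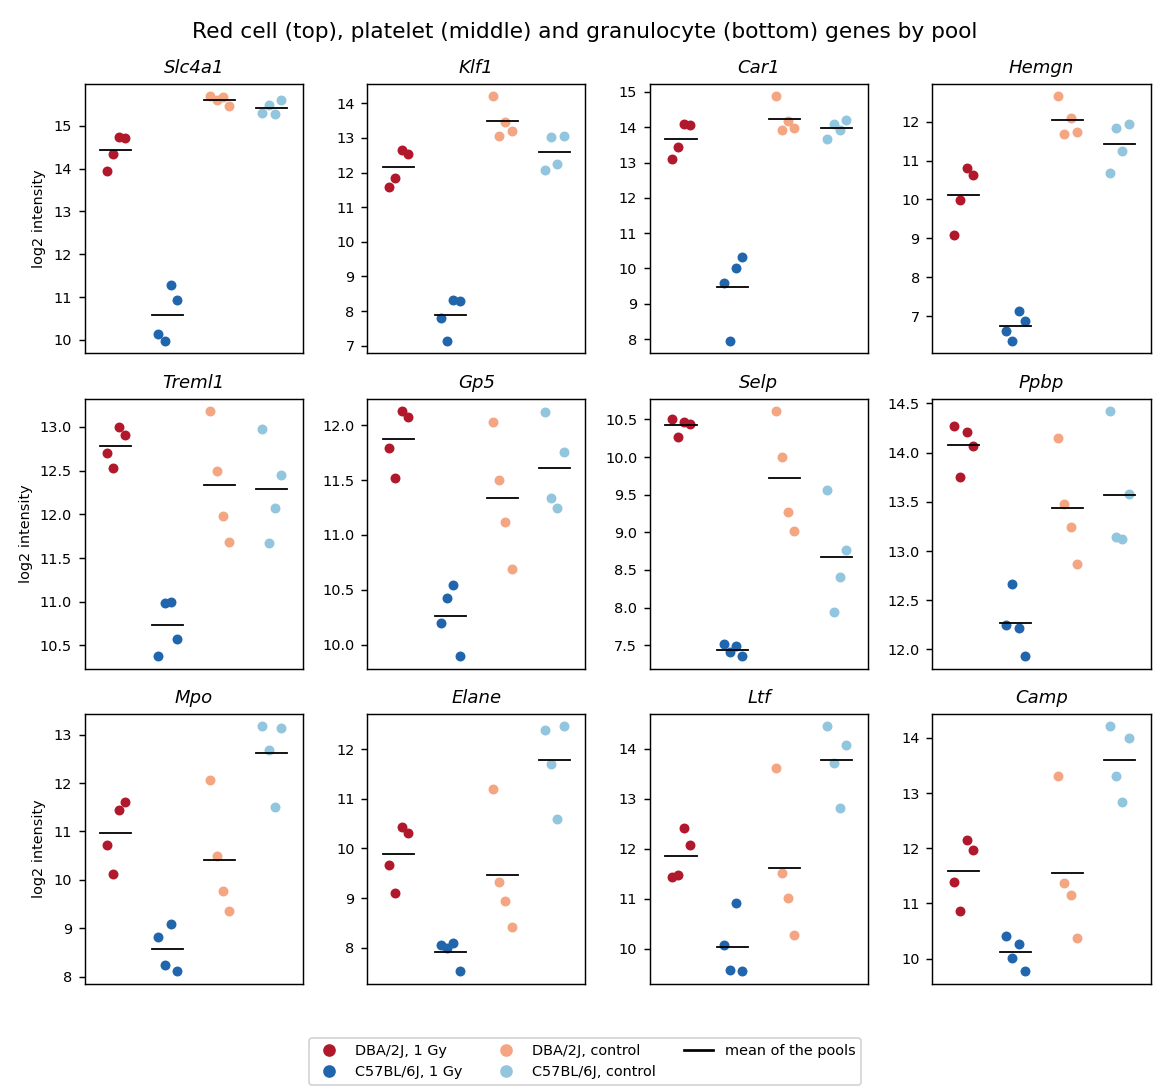
Log2 intensity of 12 blood lineage genes, 1 point per pool and a line at the mean of 4 pools. The groups from left to right are DBA/2J after 1 Gy, C57BL/6J after 1 Gy, DBA/2J control and C57BL/6J control. In the top row Slc4a1, Klf1, Car1 and Hemgn are lowest in irradiated C57BL/6J, and in the bottom row the C57BL/6J controls have the highest means.

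Most cell division genes had differences above 0. Of 34 measured mitosis genes, 28 did, as did 9162 of all 17176 features, 5 were higher and 1 was lower in irradiated DBA/2J (against 6.19% higher and 6.99% lower of all features), with a list median of 0.53. Kif22, a chromosome-binding kinesin, differed by 1.25 ± 0.32 (adjusted p = 0.00921), and Birc5, the survivin subunit of the chromosomal passenger complex, by 1.24 ± 0.33 (adjusted p = 0.0129). Of 39 DNA replication genes, 33 had a difference above 0, 3 were higher and 1 was lower, with a list median of 0.41. Tk1, thymidine kinase, differed by 1.01 ± 0.28 (adjusted p = 0.0148). The lower gene was Pold1, the catalytic subunit of DNA polymerase delta, at -0.33 ± 0.10 (adjusted p = 0.0339), a call lost without any of 6 of the 8 pools (adjusted p up to 0.121). The higher counts depended on single pools and on the setting. Over all alternatives the replication list had 0 to 23 higher calls. Without C57BL/6J replicate 1, or without replicates 1 and 2 together, there were 0 higher calls in either list, and without DBA/2J replicate 3 there were 0 in the replication list. Kif2c, a microtubule-depolymerising kinesin, ran against its list. It averaged 6.00 ± 0.26 in irradiated DBA/2J and 8.70 ± 0.41 in irradiated C57BL/6J (SD, n = 4 each), was detected on 0 of 4 DBA/2J arrays and 4 of 4 C57BL/6J arrays, and was at least 4.65-fold lower in DBA/2J (adjusted p = 7.12e-11).

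Ionising radiation is known to engage p53. Of 45 measured p53 targets, 2 were higher, 5 were lower and 38 were not called, against 6.19% higher and 6.99% lower of all features, with a median of 0.03. Ccng1, cyclin G1, had 10.92, 11.03, 11.03 and 10.79 in the irradiated DBA/2J pools, against 11.34, 11.28, 10.88 and 10.99 in the irradiated C57BL/6J pools, an overlapping difference of -0.18 ± 0.10 (adjusted p = 0.293). Mdm2, the ubiquitin ligase that limits p53, had 11.38, 11.46, 11.11 and 11.19 in the irradiated DBA/2J pools, against 11.07, 11.37, 11.60 and 11.26 in the irradiated C57BL/6J pools. It overlapped too, at -0.04 ± 0.15 (adjusted p = 0.922). Against their own controls, Ccng1 changed by 1.01 in DBA/2J and 1.05 in C57BL/6J, and Mdm2 by 0.47 in DBA/2J and 0.50 in C57BL/6J (log2). The standard errors were again 0.10 for Ccng1 and 0.15 for Mdm2, and the Mdm2 change in DBA/2J was not called.

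Cdkn1a, the p21 inhibitor of cell cycle kinases, had 9.60, 9.99, 9.78 and 9.73 in the irradiated DBA/2J pools, against 10.44, 10.80, 10.32 and 9.72 in the irradiated C57BL/6J pools. One C57BL/6J pool, replicate 4, lay among the DBA/2J values. Its difference of -0.55 ± 0.18 (adjusted p = 0.0477) was just past the threshold and fell short of it under 19 of 32 alternatives, with adjusted p up to 0.207 when 1 irradiated pool was left out and up to 0.592 over all of them. Phlda3, a p53-induced inhibitor of Akt signalling, was the largest difference of the list. It had 7.78, 7.66, 7.699 and 7.78 in the irradiated DBA/2J pools, against 9.63, 9.70, 9.43 and 8.93 in the irradiated C57BL/6J pools, at -1.69 ± 0.16 (adjusted p = 5.15e-08). Unirradiated pools were already apart, at 7.38 ± 0.23 in DBA/2J controls and 8.14 ± 0.03 in C57BL/6J controls (SD, n = 4 each). Pmaip1, the death-promoting Noxa, differed by -0.81 ± 0.11 (adjusted p = 1.64e-05). Ptprv, a receptor-type phosphatase induced by p53, was higher in DBA/2J, by 1.57 ± 0.11 (adjusted p = 2.14e-10), and Dyrk3, a kinase also abundant in red cell precursors, by 1.07 ± 0.31 (adjusted p = 0.0208). Dyrk3 was detected on 3 of 4 DBA/2J and 1 of 4 C57BL/6J arrays, and Pmaip1 on 2 of 4 DBA/2J and 3 of 4 C57BL/6J arrays. The call of Dyrk3 was lost without C57BL/6J replicate 1 or 2 and without DBA/2J replicate 3 or 4 (adjusted p up to 0.0879).

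**Figure D2:**
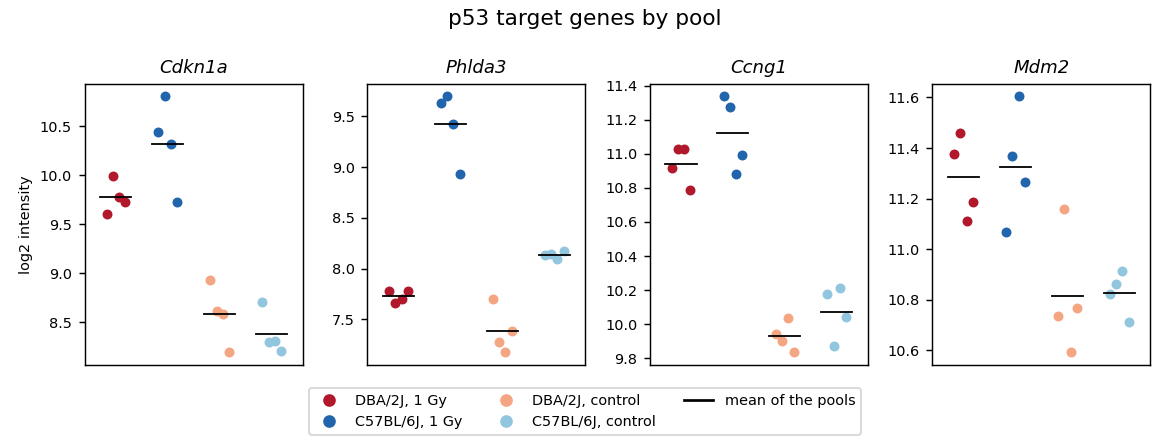
Log2 intensity of 4 p53 target genes, 1 point per pool and a line at the mean of 4 pools, in DBA/2J after 1 Gy, C57BL/6J after 1 Gy, DBA/2J control and C57BL/6J control from left to right. Ccng1 and Mdm2 overlap between the irradiated strains, Cdkn1a overlaps through 1 C57BL/6J pool, and Phlda3 does not overlap.

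Of 20 measured NK and cytotoxic genes, 10 were lower and 1 was higher in irradiated DBA/2J, against 6.99% lower and 6.19% higher of all features, with a median of -0.58. Nkg7, a protein of cytotoxic granules, had 9.85, 10.21, 10.05 and 10.12 in the irradiated DBA/2J pools, against 11.58, 11.81, 11.39 and 11.38 in the irradiated C57BL/6J pools, a difference of -1.49 ± 0.15 (adjusted p = 1.28e-07). The values were tight within each strain and did not overlap. Fasl, the death ligand of T and NK cells, differed by -1.15 ± 0.15 (adjusted p = 3.98e-06), and Ctsw, a protease of these cells, by -1.02 ± 0.22 (adjusted p = 0.00242). The gene that was higher was Cd244a, an NK receptor, at 0.79 ± 0.15 (adjusted p = 4.83e-04). Without C57BL/6J replicates 1 and 2 together, 5 genes were lower and 1 higher, and Ctsw lost its call (adjusted p = 0.0795).

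Among the lectin-like receptors of the NK gene complex, 10 of 23 measured genes were lower and 1 was higher (6.99% and 6.19% of all features), with a median of -0.30. The lower count was 3 among probes detected on all 8 irradiated arrays. Klrd1 encodes CD94, the partner chain of the NKG2 receptors, and is known to be disrupted in DBA/2J. It had 6.41, 6.31, 6.40 and 6.39 in the irradiated DBA/2J pools, against 11.83, 11.92, 11.74 and 11.21 in the irradiated C57BL/6J pools. No DBA/2J array detected it and 4 of 4 C57BL/6J arrays did, which made it at least 36.5-fold lower (adjusted p = 2.24e-18). Klri2, another receptor of the complex, was detected on 0 of 4 DBA/2J and 4 of 4 C57BL/6J arrays and was at least 2.87-fold lower (adjusted p = 6.12e-11). Klrb1c, the NK1.1 antigen of C57BL/6J, differed by -1.73 ± 0.14 (adjusted p = 2.57e-09), and Klre1, a receptor of NK cells, by -1.26 ± 0.17 (adjusted p = 1.36e-05). Klra17, a Ly49 receptor, was the 1 higher gene (1.19 ± 0.23, adjusted p = 6.54e-04). The Ly49 genes differ in number and sequence between the strains, and their near-identical copies make single assignments uncertain.

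Of 29 measured T cell genes, 24 had a difference below 0, as did 8014 of all 17176 features, 8 were lower and 0 were higher (6.99% and 6.19% of all features), with a median of -0.32. The list mean was 9.29 to 9.39 in the irradiated DBA/2J pools and 9.62 to 9.73 in the irradiated C57BL/6J pools. Cd3d, a chain of the T cell receptor complex, had 12.11, 12.24, 12.29 and 12.26 in the irradiated DBA/2J pools, against 13.08, 13.14, 12.83 and 12.96 in the irradiated C57BL/6J pools. The groups did not overlap, and the difference was -0.78 ± 0.25 (adjusted p = 0.039). Il7r, the interleukin 7 receptor, differed by -0.72 ± 0.22 (adjusted p = 0.0301), Zap70, a kinase of the same receptor pathway as Cd3d, by -0.72 ± 0.21 (adjusted p = 0.022), and Bcl11b, a T cell transcription factor, by -0.63 ± 0.16 (adjusted p = 0.00802). The call of Il7r was lost without any of 4 pools and that of Zap70 without any of 3. Leaving out 1 irradiated pool left 3 to 7 lower calls, fewest without C57BL/6J replicate 1, and leaving out C57BL/6J replicates 1 and 2 together left 2. Over all alternatives the list had 2 to 15 lower calls. The call of Cd3d was lost without any 1 of the 8 pools, with adjusted p up to 0.0998.

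Of 30 measured B cell genes, 2 were lower and 0 higher, a lower share near the 6.99% of all features, with a median of -0.12. They were Siglecg, an inhibitory lectin of B cells (-1.65 ± 0.19, adjusted p = 1.42e-06), and Cd72, an inhibitory B cell receptor (-0.93 ± 0.25, adjusted p = 0.015). The call of Cd72 was lost without DBA/2J replicate 2 (adjusted p = 0.0503) and without C57BL/6J replicates 1 and 2 together (adjusted p = 0.107), which left 1 lower gene in either case. In the germinal centre and plasma cell list 1 of 15 genes was lower, again near that share, namely Fkbp11, a protein-folding enzyme of secretory cells (-0.80 ± 0.18, adjusted p = 0.00303). Of 25 dendritic cell genes 4 were lower and 0 higher (6.99% and 6.19% of all features), with a median of -0.10. Batf3, the factor needed by cross-presenting dendritic cells, differed by -0.98 ± 0.17 (adjusted p = 1.98e-04), Bst2, the antiviral tetherin, by -1.01 ± 0.20 (adjusted p = 0.00109), and Itgae, an integrin chain of these cells, by -0.56 ± 0.13 (adjusted p = 0.00392). Naaa, a lysosomal amidase, averaged 6.40 ± 0.06 in irradiated DBA/2J and 6.92 ± 0.13 in irradiated C57BL/6J (SD, n = 4 each), with 0 of 4 DBA/2J and 3 of 4 C57BL/6J arrays above the detection limit, and was at least 1.35-fold lower (adjusted p = 0.00144).

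Of 32 macrophage and monocyte genes, 7 were lower and 2 were higher in irradiated DBA/2J (6.99% and 6.19% of all features), with a median of -0.16. Gpnmb, a glycoprotein of macrophages and pigment cells with a known premature stop in DBA/2J, averaged 6.17 ± 0.11 in irradiated DBA/2J and 8.76 ± 0.24 in irradiated C57BL/6J (SD, n = 4 each). No DBA/2J array and 1 of 4 C57BL/6J arrays passed the detection limit. By signal Gpnmb was at least 4.84-fold lower (adjusted p = 6.15e-13). Most C57BL/6J arrays did not detect it either, so this size is uncertain. Lyz1, a lysozyme, differed by -1.83 ± 0.20 (adjusted p = 3.70e-07), and Ccl24, an eosinophil-attracting chemokine, by -1.57 ± 0.27 (adjusted p = 2.48e-04). Siglec1, the sialoadhesin of marginal metallophilic macrophages, was higher, with 10.89, 11.22, 10.99 and 11.08 in the irradiated DBA/2J pools, against 9.86, 9.79, 9.74 and 9.82 in the irradiated C57BL/6J pools. These groups did not overlap, at 1.24 ± 0.20 (adjusted p = 1.09e-04). The other higher gene was Fcgr3, an activating IgG receptor (0.97 ± 0.19, adjusted p = 8.81e-04). Among 37 stroma and vessel genes 2 were higher and 3 lower (6.19% and 6.99% of all features), and 1 was higher without C57BL/6J replicate 1 or 2 or DBA/2J replicate 2 or 3. They included Col5a1, a fibrillar collagen chain, at 1.26 ± 0.25 (adjusted p = 0.00104) and Col1a2, another collagen chain, at -0.88 ± 0.16 (adjusted p = 4.04e-04).

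Of 40 measured interferon-stimulated genes, 37 had a difference below 0, as did 8014 of all 17176 features, 16 were lower and 2 were higher (6.99% and 6.19% of all features), with a median of -0.40. The list mean was 9.15 to 9.35 in the irradiated DBA/2J pools and 9.78 to 10.02 in the irradiated C57BL/6J pools. Trim30a, a TRIM protein that restrains inflammatory signalling, had 6.91, 6.90, 6.78 and 6.80 in the irradiated DBA/2J pools, against 11.67, 11.57, 11.40 and 11.39 in the irradiated C57BL/6J pools. All DBA/2J values lay close to the detection limit, and the difference was -4.66 ± 0.09 (adjusted p = 5.04e-19). Its neighbours Trim12a and Trim30d differed by -2.73 ± 0.20 and -2.28 ± 0.15, and 2 of 4 DBA/2J arrays detected Trim30d. Ifi205, a DNA-sensing family member, was detected on 0 of 4 DBA/2J and 4 of 4 C57BL/6J arrays and was at least 4.36-fold lower (adjusted p = 3.68e-11). The 2 higher genes were Rsad2, the antiviral viperin (1.32 ± 0.31, adjusted p = 0.00493), and Isg20, an RNA-degrading enzyme (1.15 ± 0.23, adjusted p = 0.00124).

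Of 10 interferon-induced GTPases, which attack the vacuoles of intracellular microbes, 1 was higher and 4 were lower in DBA/2J (6.19% and 6.99% of all features). Gbp2b, a guanylate-binding protein, had 11.84, 12.27, 12.16 and 12.11 in the irradiated DBA/2J pools, against 7.43, 7.65, 7.42 and 7.75 in the irradiated C57BL/6J pools. The gap between the strains was many times the spread within them, at 4.53 ± 0.16 (adjusted p = 3.35e-15). The lower ones included Irgm2 (-0.71 ± 0.19, adjusted p = 0.0145), Irgm1 (-0.69 ± 0.16, adjusted p = 0.00444) and Ifi47 (-0.53 ± 0.15, adjusted p = 0.0154). The call of Irgm2 was lost without C57BL/6J replicate 4 (adjusted p = 0.0605), and that of Ifi47 without C57BL/6J replicate 2 (adjusted p = 0.0539). Without C57BL/6J replicates 1 and 2 together 0 were lower, with adjusted p of 0.0513 for Irgm1, 0.0633 for Irgm2 and 0.132 for Ifi47. Among 34 inflammatory genes 3 were lower and 0 higher (6.99% and 6.19% of all features). Cxcl10, an interferon-induced chemokine, was seen on 0 of 4 DBA/2J and 4 of 4 C57BL/6J arrays and was at least 3.99-fold lower (adjusted p = 7.91e-11). Tlr1, a sensor of bacterial lipopeptides, differed by -2.27 ± 0.13 (adjusted p = 1.93e-11), and Nfkb2, a subunit of NF-kB, by -2.16 ± 0.20 (adjusted p = 3.62e-08).

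Antigen presentation genes showed strong single-gene differences in both directions. H2-Ea, the alpha chain of the class II molecule I-E, is known to be silent in C57BL/6J because its promoter is deleted. It had 15.99, 15.99, 15.99 and 15.99 in the irradiated DBA/2J pools, which is the top of the normalized scale, against 6.61, 6.63, 6.69 and 6.61 in the irradiated C57BL/6J pools, where 0 of 4 arrays detected it. H2-Ea was at least 655-fold higher in DBA/2J (adjusted p = 6.14e-14). H2-Aa, the alpha chain of the I-A molecule, had 9.49, 9.61, 9.91 and 10.19 in the irradiated DBA/2J pools, against 13.98, 13.97, 13.89 and 13.62 in the irradiated C57BL/6J pools. It ran the opposite way to H2-Ea, at -4.06 ± 0.29 (adjusted p = 6.00e-10), and so did its partner H2-Ab1 (-1.76 ± 0.21, adjusted p = 1.48e-06) and H2-Ob, a regulator of peptide loading (-2.59 ± 0.17, adjusted p = 7.25e-11). Of 16 class II genes 1 was higher and 4 were lower, and of 22 class I genes 3 were higher and 4 were lower (6.19% and 6.99% of all features). Among the class I list were H2-K1, a classical class I heavy chain, at -3.54 ± 0.29 (adjusted p = 4.50e-09) and Psmb9, an immunoproteasome subunit, at -4.21 ± 0.16 (adjusted p = 7.07e-15). A second H2-K1 probe gave -0.63 ± 0.24 (adjusted p = 0.0952). H2-Q6, a nonclassical class I chain, was higher (1.36 ± 0.25, adjusted p = 4.03e-04). The H2 genes are highly polymorphic, so their probes can read one haplotype better than the other.

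Further large differences involved single genes. Slpi, a secreted protease inhibitor, had 7.81, 7.68, 7.55 and 7.49 in the irradiated DBA/2J pools, against 13.99, 14.10, 14.11 and 13.67 in the irradiated C57BL/6J pools, a difference of -6.34 ± 0.21 (adjusted p = 1.02e-15). Fcer1g, the signalling chain of IgE and IgG receptors, had 6.31, 6.84, 5.93 and 6.24 in the irradiated DBA/2J pools, where 1 of 4 arrays detected it. In the irradiated C57BL/6J pools Fcer1g had 14.24, 14.28, 13.78 and 14.00, and it was lower in DBA/2J (adjusted p = 2.38e-18), with no exact size because 3 of the DBA/2J arrays lay at background. Both genes were bright in C57BL/6J, while in DBA/2J Slpi was dim but detected on 4 of 4 arrays. Sspn, a membrane protein of the dystrophin complex, was detected on 0 of 4 DBA/2J and 4 of 4 C57BL/6J arrays and was at least 12.8-fold lower (adjusted p = 1.02e-17). Samsn1, an adaptor that dampens B cell activation, differed by -3.63 ± 0.12 (adjusted p = 9.80e-16), Abhd16a, a lipase, by -4.95 ± 0.12 (adjusted p = 2.38e-18), Trim11, a ubiquitin ligase, by -4.09 ± 0.12 (adjusted p = 2.98e-16) and Ttc27 by -3.94 ± 0.14 (adjusted p = 2.90e-15). Of the 4 DBA/2J arrays, 2 detected Samsn1, 3 Trim11 and 3 Ttc27.

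On the higher side, Serpina1b, a copy of the protease inhibitor alpha-1-antitrypsin, had 13.28, 13.35, 13.51 and 13.62 in the irradiated DBA/2J pools, against 9.09, 8.86, 8.69 and 9.26 in the irradiated C57BL/6J pools. Its groups were far apart, at 4.47 ± 0.20 (adjusted p = 1.68e-13), and the related copy Serpina1d differed by 4.21 ± 0.19 (adjusted p = 1.63e-13). The Serpina1 copies are near-identical, so the signal of one copy cannot be told from the other. Glo1, the methylglyoxal-clearing enzyme, and Alad, a heme synthesis enzyme, are both known to be duplicated in DBA/2J. Glo1 had 13.54, 13.47, 13.44 and 13.40 in the irradiated DBA/2J pools, against 11.75, 11.96, 12.02 and 12.02 in the irradiated C57BL/6J pools, at 1.53 ± 0.12 (adjusted p = 2.65e-09). Alad had 14.31, 14.29, 14.33 and 14.46 in the irradiated DBA/2J pools, against 11.95, 12.35, 12.59 and 12.22 in the irradiated C57BL/6J pools, at 2.07 ± 0.20 (adjusted p = 1.05e-07). Neither gene overlapped between strains. Nnt, a mitochondrial proton pump with a known deletion in C57BL/6J, averaged 7.07 ± 0.12 in irradiated DBA/2J and 7.20 ± 0.12 in irradiated C57BL/6J (SD, n = 4 each) and was not called (-0.13 ± 0.08, adjusted p = 0.405). Hc and Ifi202b, with known strain lesions, had probes that did not pass the detection filter.

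**Figure D3:**
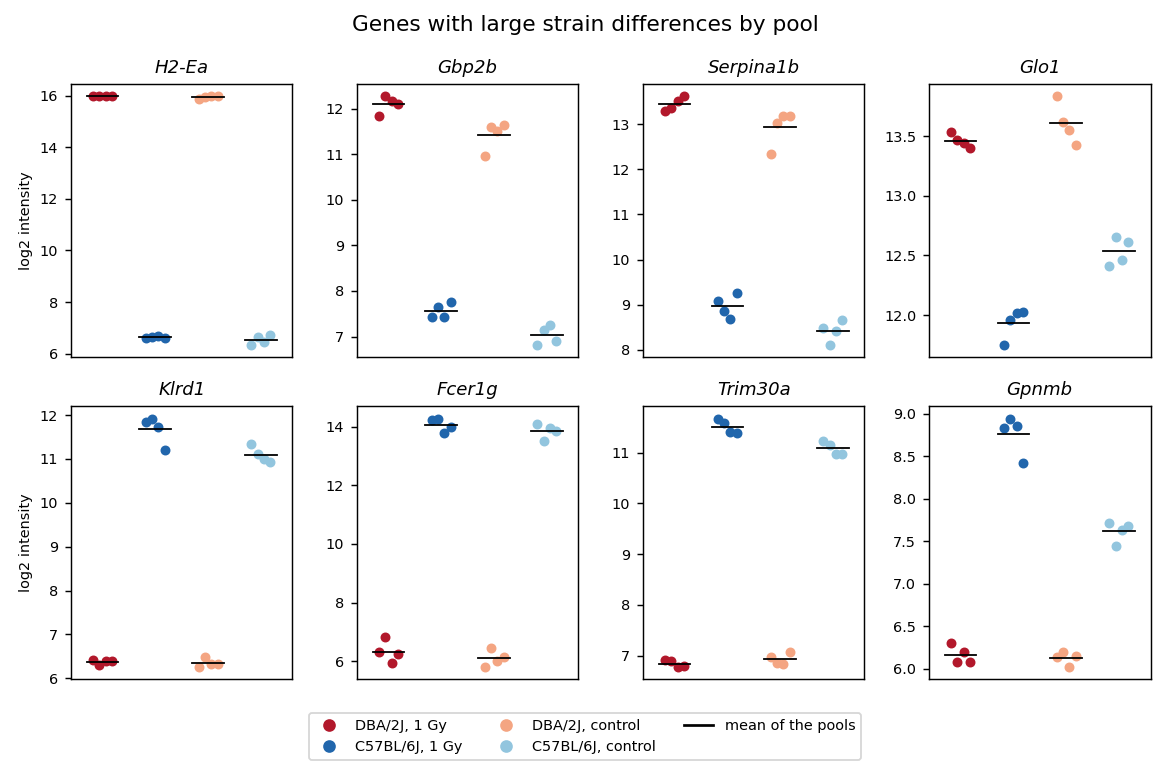
Log2 intensity of 8 genes with large strain differences, 1 point per pool and a line at the mean of 4 pools, in DBA/2J after 1 Gy, C57BL/6J after 1 Gy, DBA/2J control and C57BL/6J control from left to right. H2-Ea, Gbp2b, Serpina1b and Glo1 are higher and Klrd1, Fcer1g, Trim30a and Gpnmb lower in DBA/2J, with and without irradiation.

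In the remaining lists the counts stand against 6.19% higher and 6.99% lower of all features, 13.2% together. Of 41 ribosomal protein genes 2 were higher and 3 lower, with Rpl29 at -4.58 ± 0.11 (adjusted p = 2.38e-18) and Rpl14 at 0.82 ± 0.13 (adjusted p = 6.13e-05). Ribosomal genes have many near-identical pseudogenes, so these values are uncertain. Of 34 proteasome subunits 1 was higher and 3 lower, with Psmb6 at -4.40 ± 0.15 (adjusted p = 2.66e-15) and Psmb5 at -0.97 ± 0.13 (adjusted p = 7.43e-06), both catalytic. Of 52 oxidative phosphorylation subunits 0 were higher and 2 lower, with Ndufb10 of complex I at -3.59 ± 0.15 (adjusted p = 9.07e-14). Of 44 lysosomal genes 1 was higher and 2 lower, and the lower count was 1 when any 1 of 7 of the 8 irradiated pools was left out (all but DBA/2J replicate 2). Of 26 DNA break repair genes 1 was lower, Parp2, a strand-break sensor (-0.55 ± 0.10, adjusted p = 4.23e-04), whose second probe gave -0.08 ± 0.12 (adjusted p = 0.789). In the glutathione and NRF2 list 5 of 48 were higher and 5 lower, and the higher count was 3 without C57BL/6J replicate 1 or 3 or DBA/2J replicate 2 or 4, and without C57BL/6J replicates 1 and 2 together. Glrx, a glutaredoxin, differed by -3.45 ± 0.18 (adjusted p = 1.50e-12), Gpx3, a secreted glutathione peroxidase, by -1.92 ± 0.22 (adjusted p = 1.40e-06), and Mgst3, a microsomal glutathione transferase, by 2.50 ± 0.39 (adjusted p = 5.55e-05). Of 24 immediate early and heat shock genes 8 were lower and 0 higher, with the transcription factors Egr3 at -0.88 ± 0.20 (adjusted p = 0.00415), Egr1 at -0.75 ± 0.19 (adjusted p = 0.00784) and the chaperone Hsph1 at -1.13 ± 0.18 (adjusted p = 6.84e-05). Without C57BL/6J replicates 1 and 2 together 3 were lower, and the call of Egr1 was lost there and with median scaling (adjusted p up to 0.0889). Of 20 pancreas and fat genes 1 was higher, Car3, and 0 were lower, with a median of -1.81 and C57BL/6J replicate 1 far above the other pools. Of 15 genes with known strain lesions 7 were higher and 4 lower.

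The unirradiated pools of both strains showed which differences existed without 1 Gy. There DBA/2J and C57BL/6J differed in 2049 features, 11.9% of all, and these 8 control pools share none with the irradiated ones. Of the 2265 features called after 1 Gy, 1411 were also called in the same direction in controls, which is 62.3% of the 1 Gy calls and 68.9% of the control calls. The share was 52.6% of the higher and 70.9% of the lower calls. A further 845 were called after 1 Gy only, of which 763 had the same sign in controls, and 9 were called in opposite directions. Across the 17176 features the 2 strain differences had a Pearson correlation of 0.826 and a Spearman correlation of 0.669, with probes, platform and strains in common. At 10 cGy 7697 features (44.8%) were called, but the 3 DBA/2J low dose pools correlated at only 0.959 to 0.99 among themselves, and no gene is described from them.

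Several genes with very large strain differences were apart in controls as well. Gbp2b differed there by 4.40 (adjusted p = 5.99e-15), Serpina1b by 4.51 (adjusted p = 1.64e-13) and Slpi by -6.59 (adjusted p = 7.08e-16). H2-Ea averaged 15.95 ± 0.06 in DBA/2J controls and 6.55 ± 0.18 in C57BL/6J controls (SD, n = 4 each), again near both ends of the scale. Klrd1 averaged 6.35 ± 0.09 in DBA/2J controls and 11.09 ± 0.18 in C57BL/6J controls, and Fcer1g 6.10 ± 0.26 in DBA/2J controls and 13.85 ± 0.24 in C57BL/6J controls (SD, n = 4 each), with DBA/2J near background in both genes. Of the red cell genes Hbb-b2 differed in controls too, by 3.42 (adjusted p = 1.85e-10), but most did not. In controls 3 of 37 were higher in DBA/2J (5.27% of all features) and 0 lower, with a median of 0.39. Slc4a1 differed there by 0.20 (adjusted p = 0.843), Car1 by 0.26, also not called, and Klf1 by 0.89 (adjusted p = 0.303). Platelet genes had a control median of -0.22, with 1 higher and 2 lower (6.65%). Granulocyte genes ran the other way in controls, where 8 of 8 primary granule genes and 16 of 19 late granule genes were lower in DBA/2J, with medians of -2.26 and -1.26. The control pools overlapped in both list means. The primary granule mean was 7.539 to 9.115 in DBA/2J controls and 9.106 to 10.66 in C57BL/6J controls. The late granule mean was 8.84 to 10.16 in DBA/2J controls and 9.78 to 11.41 in C57BL/6J controls. In controls 9 of 40 interferon-stimulated genes were lower and 1 higher, against 6.65% and 5.27% of all features. Of 23 NK complex receptors 8 were lower and 2 higher, and of 20 NK and cytotoxic genes 4 and 1. Of 32 macrophage genes 8 were lower and 2 higher, and of 29 T cell genes 0 were called.

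**Figure D4:**
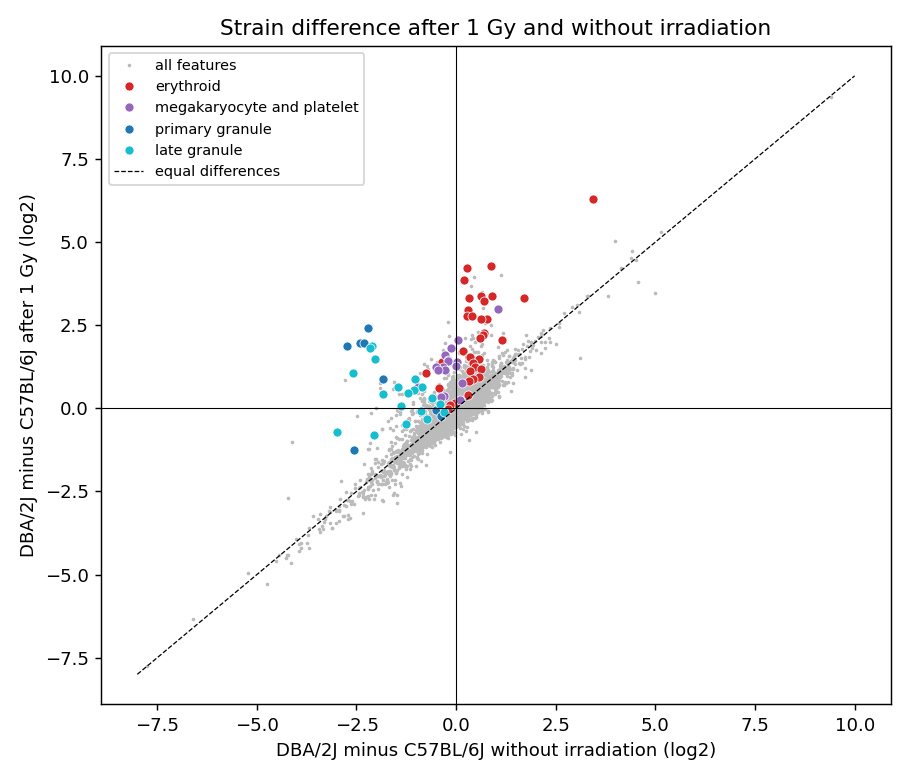
Strain difference after 1 Gy (vertical axis) against the strain difference without irradiation (horizontal axis), both DBA/2J minus C57BL/6J on the log2 scale, 1 point per feature, with the dashed line marking equal differences. Most red cell and platelet genes lie above the line near a control difference of 0, and 4 primary granule genes lie at the upper left.

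The change in the strain difference was tested gene by gene as an interaction of strain and 1 Gy. It was called for 62 features (0.361% of all), 59 with a difference more positive after 1 Gy (0.344%) and 3 more negative (0.0175%), and 48 of the 62 were also called between the irradiated strains. Of the red cell list 8 of 37 were called, all more positive, with 6 of 17 in the platelet list, 5 of 8 in the primary granule list and 5 of 19 in the late granule list. In the interferon-stimulated, T cell, NK and cytotoxic and NK complex receptor lists 0 were called. The largest was Mpo, at 4.62 ± 0.68, adjusted p = 0.00199. Prtn3 reached 4.61 ± 0.68, adjusted p = 0.00199, Ctsg 4.40 ± 0.67, adjusted p = 0.00293, Elane 4.28 ± 0.69, adjusted p = 0.00455, Car1 3.94 ± 0.64, adjusted p = 0.00461, Slc4a1 3.66 ± 0.50, adjusted p = 0.00132 and Hbb-b2 2.86 ± 0.32, adjusted p = 1.27e-04. The number of interaction calls depended on single pools. It was 22 without irradiated DBA/2J pool 3 and 23 without pool 4, 35 without irradiated C57BL/6J pool 1 and 31 without pool 2. Leaving out DBA/2J control pool 2, 3 or 4 gave 36, 30 and 30, leaving out C57BL/6J control pool 4 gave 33, and leaving out DBA/2J control pool 1 gave 106. The 7 genes given here are among those whose call held when any 1 pool was left out, so their stability does not speak for the other calls. The call of Ctsg was lost with the background inferred from the detection p-values (adjusted p = 0.0738). These 7 are not the 7 largest. Ltf and Ngp, both at 3.98, are not among them, and their calls were lost in 2 and 8 of the settings that left out 1 pool. Nor are Lcn2 (3.66), Camp (3.51), Klf1 (3.38), Slc38a5 (3.30) and Ctse (2.87), all above Hbb-b2. Their calls were lost in 12, 3, 8, 11 and 11 of those settings.

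The levels behind these interactions differed by lineage. Slc4a1 averaged 15.61 ± 0.10 in DBA/2J controls and 15.42 ± 0.15 in C57BL/6J controls (SD, n = 4 each), which is near the top of the scale in both. Against those controls Slc4a1 changed after 1 Gy by -1.18 ± 0.36 in DBA/2J, which was not called (adjusted p = 0.0968). In C57BL/6J its change was -4.84 ± 0.36 (adjusted p = 3.27e-08). Over the red cell list the median change after 1 Gy was -1.34 in DBA/2J, with 12 of 37 lower and 0 higher (1.05% and 0.646% of all features, 1.7% either way), and -2.88 in C57BL/6J, with 37 of 37 lower and 0 higher (4.42% and 3.63%, 8.05% either way). Mpo averaged 10.42 ± 1.19 in DBA/2J controls and 12.63 ± 0.78 in C57BL/6J controls (SD, n = 4 each). It changed by 0.56 ± 0.48 in DBA/2J, which was not called (adjusted p = 0.699), and by -4.06 ± 0.48 in C57BL/6J (adjusted p = 1.1e-05). One DBA/2J control pool held more granulocyte transcripts than the other 3, with a primary granule list mean of 9.11, against 7.54 to 8.13 in those. Treml1 changed by 0.45 ± 0.28 in DBA/2J, also not called (adjusted p = 0.539), and by -1.56 ± 0.28 in C57BL/6J (adjusted p = 0.00105). Gpnmb was the named gene with a more negative interaction (-1.11 ± 0.18, adjusted p = 0.00455), with a change of 0.04 in DBA/2J, where it stayed at the floor, and of 1.14 in C57BL/6J. These responses share their pools with the strain differences and are not independent of them.

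**Figure D5:**
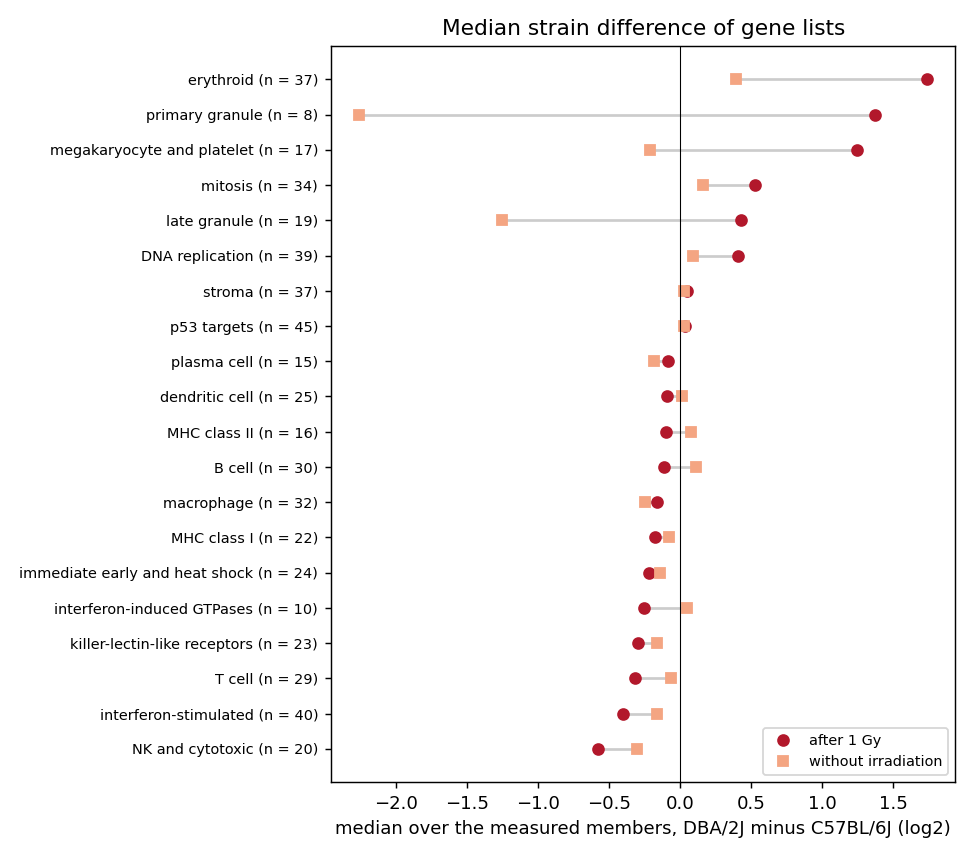
Median difference, DBA/2J minus C57BL/6J on the log2 scale, over the measured members of 20 gene lists, after 1 Gy (circles) and without irradiation (squares), with the number of measured members in brackets. The red cell, platelet and both granule lists moved to the right after 1 Gy, while the interferon-stimulated, T cell, NK and cytotoxic and receptor lists lie left of 0 in both.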

How the data were processed

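Each of 23 arrays measured spleen RNA of 2 mice combined, so p-values reflect the spread between such pools. Per the file headers, the deposited signals are linear intensities without normalization, and the deposited detection p-value sets a probe against background. The authors' own values were log2, judged from their range, and their scale and centring are otherwise unknown (array medians 8.09 to 8.10). They served as an alternative only. The submitters' processing notes name lumi. Versions and scanner software are not given in the sources used here.

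In limma 3.58.1 (R 4.3.3), normexp correction fitted to the signals (offset 50), quantile normalization and log2 were applied. The background was not inferred from the detection p-values, because 453 to 660 probes per array with a signal over 300 had a detection p of 0.05 or more. That inference, with an offset of 16, is an alternative. A probe needed a detection p under 0.05 on 3 or more of the 23 arrays, which 18423 of 34492 met, and 284 with a mean signal over 300 did not. The platform annotation gives 20256 probes 1 symbol, 9 several and 14227 none. Gene numbers matched 20213 probes to the RefSeq table and altered 0 symbols. The brightest probe stood for each symbol, and probes without one were tested singly, giving 17176 features, 11348 with a symbol.

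One mean per group, 6 in all, was estimated from the 23 arrays (lmFit, eBayes), with Benjamini-Hochberg adjustment across every feature, and tested on simulated data. The number of arrays limits the precision. For a probe detected on 0 of 4 arrays of a group, a fold is a bound, written "at least", in which each dim array enters at its own signal or at its lowest detected signal, whichever is greater. That lowest detected signal was 6.46 to 6.53 on the log2 scale, below the median of 6.67 of the normalized values. Undetected probes can be brighter than it, so the bound concerns signal and is no detection limit. Named genes are the 15 largest called differences each way without overlap, up to 4 called members of each of 30 lists, the 10 largest interactions and 14 genes whatever their values. Hdc, Cd244a, Klra17, Fcgr3, Rsad2, Isg20, Hba-a1, Rhd and Ppox were named after their values were seen. Members and lists were chosen with earlier results of these data known. Alternatives covered background, normalization, probe filter, probe choice, moderation, array weights, the authors' values and leaving out pools. A block for slide or chip was not run, since the headers give none. Klra8 was not analysed here. Columns not used numbered 0.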

Additional observations from a re-analysis of the deposited data

Results flagged for a closer look

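In 7 of 232 group values of named genes, 1 pool stood far from the other 3 of its group by Dixon's test, where chance gives about 1 in 20. In log2 intensity, Kif22 in DBA/2J high dose replicate 1 was 9.85, against 10.41 to 10.50 in the other pools. Rpl14 in DBA/2J high dose replicate 2 was 8.31, against 8.63 to 8.67. Klrd1 in DBA/2J high dose replicate 2 was 6.31, against 6.39 to 6.41, all of them below detection. Clec4g, a lectin of vessel linings, in DBA/2J high dose replicate 1 was 11.82, against 10.97 to 10.98. Lcn2 in C57BL/6J high dose replicate 4 was 9.06, against 9.89 to 9.95. Rpl21 in C57BL/6J high dose replicate 1 was 8.79, against 8.95 to 8.95. Fasl in C57BL/6J high dose replicate 2 was 9.13, against 8.61 to 8.68.

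For 18 named genes the strain difference after 1 Gy differed from the one without irradiation in the fit to all arrays, by the interaction term of limma with an adjusted p under 0.05. In log2 units the red cell genes Car1, Slc4a1, Klf1 and Hbb-b2 had 3.94, 3.66, 3.38 and 2.86, Slc38a5 had 3.30 and Ctse had 2.87. Primary granule genes had 4.62 (Mpo), 4.61 (Prtn3), 4.40 (Ctsg) and 4.28 (Elane). Late granule genes had 3.98 (Ltf), 3.98 (Ngp), 3.66 (Lcn2) and 3.51 (Camp). The platelet genes had 2.01 (Treml1) and 1.90 (Gp5). Kif2c, which was lower in DBA/2J in both comparisons, had 1.50, and Gpnmb had -1.11, both with DBA/2J at background.

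Of these calls, those of Hbb-b2, Car1, Slc4a1, Mpo, Elane and Prtn3 held in all 30 alternatives. The other 12 were lost in some. Of 16 settings that left out 1 pool, the call was lost in 12 for Lcn2, 11 for Slc38a5, 11 for Ctse, 8 for Ngp, 8 for Klf1, 7 for Treml1, 3 for Camp, 2 for Ltf and 2 for Gp5. These 9 calls, and those of Gpnmb and Kif2c, were also lost without irradiated C57BL/6J replicates 1 and 2 together, and that of Ctsg with the background inferred from the detection p-values.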

How the results depend on the processing

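Across 32 alternatives, 22 of them planned and 10 chosen after seeing the data, no named gene changed direction while called, and 83 of the 112 called named genes kept call and direction in every one where they were measured. The 2265 calls after 1 Gy became 3824 with array weights (1963 higher and 1861 lower), 1466 with probes detected on all 8 irradiated arrays (736 lower, and 1313 for controls), where fewer features were tested, and 1454 (630 higher) without irradiated C57BL/6J replicates 1 and 2 together (added after seeing the data). The 62 interaction calls (59 and 3) became 265 with array weights (218 and 47), 40 (25 and 15) with the background inferred from the detection p-values, 27 (22 and 5) with the authors' values, 15 (15 and 0) without irradiated C57BL/6J replicates 1 and 2 together, and a lower count of 7 without the low dose arrays, 5 with trended robust moderation and 1 with probes detected on all 8 arrays. Leaving out 1 pool gave 1846 to 2325 calls after 1 Gy (835 to 1116 higher, 1011 to 1209 lower), 1684 to 2042 for controls, 7543 to 7795 at 10 cGy and 22 to 106 for the interaction (1 to 7 more negative), with the fewest 1 Gy and interaction calls without DBA/2J high dose replicate 3. The cause of these moves was not tested. The red cell list had 20 to 33 higher calls and a median of 1.19 to 1.93, and the platelet list 11 to 16. Higher calls ranged over 0 to 23 for DNA replication and 0 to 7 for late granule genes. Lower calls ranged over 2 to 15 for T cells and 5 to 13 for NK and cytotoxic genes. Over all alternatives lower calls ranged over 3 to 12 for the NK complex receptors, 5 to 11 for macrophages, 2 to 10 for p53 targets, 2 to 9 for inflammation, 1 to 6 for B cells, 1 to 7 for lysosomes, 3 to 10 for immediate early and heat shock genes and 0 to 4 for GTPases, and higher calls over 3 to 12 for the glutathione list. No paired analysis was possible because the pool numbers in the labels differ between groups. Differences of probes near the floor are limited by their signal over background.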

Other observations

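Called genes sat beside each other in places. Of 11329 measured genes placed along the chromosomes by the RefSeq gene table, 13.5% were called between the irradiated strains, and 11 runs held 4 or more called genes in a row. The Trim34a, Trim12a, Trim30b, Trim30a and Trim30d run on chromosome 7 had 5 of 5 lower in DBA/2J, and 5 of 5 were called in the same direction without irradiation. A run of 6 on chromosome 12 (Serpina1b, Serpina1d, Serpina1a, Serpina1e, Serpina11 and Serpina12) had 3 higher and 3 lower, with 5 called alike in controls. On chromosome 17, H2-Eb2, H2-Ea, BC051142 and Notch4 had 2 higher and 2 lower. The Adam33, Siglec1, Hspa12b, 1700037H04Rik, Spef1 and Cenpb run on chromosome 2 had 4 higher and 2 lower.

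Some probes were seen in 1 strain only. After 1 Gy 116 features were detected on 4 of 4 DBA/2J arrays and 0 of 4 C57BL/6J arrays, of which 84 were called higher, and 151 showed the reverse, of which 130 were called lower. Of all features 6.19% were called higher and 6.99% lower. These features were picked by their detection on the same 8 arrays, so their share of calls is partly set by that choice. Second probes of called genes often did not repeat the call. Of 93 other probes of higher genes, 11 were called higher and 9 lower, and of 91 other probes of lower genes, 16 were called lower and 5 higher (6.19% higher and 6.99% lower of all features). The brightest probe stood for each gene, so these other probes were the dimmer ones. Low signal and a failed repeat were not told apart.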
